A study of Mus musculus with 8 samples.

Results

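The loci of 8 genes for platelet granule cargo and its secretion were examined for open chromatin in 4 populations of mouse marrow progenitors: Rab27b, Nbeal2, Vwf, Thbs1, Pf4, Ppbp, Selp and Treml1. Each locus was the gene body with 10 kb to each side, and the 8 loci are among 21887 protein-coding loci of the mouse genome build mm10. The genes were chosen by their role and with earlier results of these libraries known, in which the measured bases under peaks at Rab27b and Treml1 were fewer in C13 than in C10 and C18. Values of C13 are for that reason given as a description, with no test.

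Platelets are shed by megakaryocytes and carry their cargo in alpha granules, which hold adhesion proteins, chemokines and growth factors, and in dense granules, which hold small molecules such as ADP and serotonin. On activation the granules fuse with the surface membrane, their cargo is released, and receptors of the granule membrane appear on the cell. The cargo is largely made or taken up in the megakaryocyte, before platelets form.

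Chromatin accessibility was measured by ATAC-seq, in which a transposase cuts and tags open DNA, on 40000 to 50000 sorted cells per library. All cells were taken from wild-type C57BL/6 bone marrow and were sorted as KIT+ CD16/32-, the gate of common myeloid progenitors. C2 cells were CD34bright CD41+ CD9+, C13 cells were CD34dim CD41- CD9-, C10 cells were CD34dim CD41+ CD9+ CD48bright, and C18 cells were CD34dim CD41+ CD9+ CD48dim, with 2 libraries each. CD41 is an integrin chain of the megakaryocyte lineage, CD9 a tetraspanin, and CD48 belongs to the SLAM family of receptors. The sort was a surface phenotype, and the labels give no age or sex of the mice. The populations carry the cluster names of the sample titles; the series text lists partly different ones. Whether 2 libraries of 1 population stem from different mice is not stated, so p-values measure only the spread between libraries, which may be technical.

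The authors deposited for each library a list of 100000 peaks from the caller F-Seq and a list of 150-base peaks from the caller HOMER. The lists hold no read counts, so depth is unknown and intervals for counting error cannot be given. The C18 libraries stood apart: their median F-Seq peak was 491 and 618 bases wide, against 691 to 800 in the other 6, and HOMER listed 72379 and 83548 peaks in them, against 171712 to 260118. Covered bases were therefore scaled to the same total length, by factors of 0.885 to 1.43 for F-Seq and 0.729 to 2.62 for HOMER. The HOMER factors of C18 were 2.62 and 2.31, so its scaled HOMER bases come from few peaks raised by the largest factors. Differences that rest on C18 are also given with HOMER or without C18. Ranks, except where HOMER is named, and counts of groups that do not overlap are from F-Seq. An F-Seq list ends at a number of peaks and not at a level of signal, so a region with no peak is one outside the 100000 strongest, which need not be closed. Each population is a bulk sample, in which fewer open cells and less opening per cell cannot be told apart. The 7 loci of the sort markers (Kit, Cd34, Itga2b, Cd9, Cd48, Fcgr3 and Fcgr2b) all held peaks, and their sum was 49.3 and 45.6 kb in C2, 43.4 and 42.6 kb in C13, 44.3 and 47.8 kb in C10, and 43 and 38.4 kb in C18.

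RefSeq promoter sequence was matched for 5 of the 8 genes, on GRCm38.p6, the assembly of mm10. The 250 bases before the start are shown for 4 genes whose start regions were called differently: in libraries of C2, C10 and C18 but in none of C13 (Treml1), in every library (Pf4 and Nbeal2), or only among the weaker peaks (Ppbp). They lie at chr17:48359666-48359915 on the plus strand (Treml1), chr5:90772185-90772434 on the plus strand (Pf4), chr5:90768268-90768517 on the plus strand (Ppbp) and chr9:110654162-110654411 on the minus strand (Nbeal2). Each is written 5′ to 3′, and capitals mark the motif letters that were found.
Treml1: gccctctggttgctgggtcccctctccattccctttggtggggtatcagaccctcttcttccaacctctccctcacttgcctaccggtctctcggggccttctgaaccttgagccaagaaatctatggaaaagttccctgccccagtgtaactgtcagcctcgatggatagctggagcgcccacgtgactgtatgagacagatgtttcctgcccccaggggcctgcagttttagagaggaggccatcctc
Pf4: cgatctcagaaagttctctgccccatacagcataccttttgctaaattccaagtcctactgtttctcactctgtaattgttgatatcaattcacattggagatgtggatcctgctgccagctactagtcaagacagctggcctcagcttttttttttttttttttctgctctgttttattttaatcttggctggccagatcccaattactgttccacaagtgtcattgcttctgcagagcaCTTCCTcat
Ppbp: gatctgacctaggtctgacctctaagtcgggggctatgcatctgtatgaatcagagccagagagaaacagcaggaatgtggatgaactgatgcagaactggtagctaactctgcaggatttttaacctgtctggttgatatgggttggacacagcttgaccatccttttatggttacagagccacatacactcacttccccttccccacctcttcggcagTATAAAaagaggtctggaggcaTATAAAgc
Nbeal2: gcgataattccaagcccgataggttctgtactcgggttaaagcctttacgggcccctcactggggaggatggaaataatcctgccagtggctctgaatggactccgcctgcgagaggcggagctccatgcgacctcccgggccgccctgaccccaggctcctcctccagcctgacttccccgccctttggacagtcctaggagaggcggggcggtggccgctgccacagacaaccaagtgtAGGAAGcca

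The motifs searched, on both strands, were the GATA motif as AGATAA or TGATAA, the ETS motif as CCGGAA or AGGAAG, the RUNX motif as TGTGGT or TGCGGT, the TATA box as TATAAA, and the motif of AP-1 and NF-E2 as TGAGTCA, and no hits overlapped another motif. Pf4 and Nbeal2 each hold an ETS match that begins 9 bases before the start, Pf4 on the minus strand, and Selp holds one 64 bases before its start. So 3 of the 5 promoters hold an ETS match, against 38.2% of all 32851 promoters of the table. Ppbp holds TATAAA 30 and 8 bases before its start, and 12.4% of all promoters hold it. None of the 5 holds the GATA, RUNX or TGAGTCA letters, which 16.6%, 18.6% and 4.46% of all promoters do. Their GC content was 41.2% in Pf4, 47.2% in Ppbp, 53.6% in Selp, 56.8% in Treml1 and 62.4% in Nbeal2, with a median of 52.4% over all promoters.

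The merged F-Seq lists placed 103 regions at the 8 loci, of 207739 in all, with a median width of 807 bases. Of these, 78 lay in the gene bodies, 16 in the flank at the low coordinates and 9 in the other flank, and 14 overlapped another gene. Pf4 and Ppbp are neighbours, 2371 bases apart, and share 4 regions, so their values are not independent. Peaks of all 8 libraries met in 20 regions, which is 19.4%, against 19.1% of all regions, and 40 had a peak in 1 library only, against 40.2% of all regions.

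Regions with a peak in both libraries numbered 40 of the 103 in C2 (32.7% of all regions), 32 in C13 (42.5%), 47 in C10 (39.3%) and 32 in C18 (25.6%). The C13 count rests on the contrast that chose members, and nothing is read from it. F-Seq listed 52 and 53 peaks at the 8 loci in C2, 36 and 41 in C13, 61 and 54 in C10, and 55 and 59 in C18. Rab27b, known beforehand to be low in C13, held 3 and 4 of the C13 peaks, against 10 to 16 in the other libraries. The C13 values of peaks and bases at the 8 loci are for that reason a description only. HOMER listed 89 and 88 in C2, 95 and 91 in C13, 120 and 122 in C10, and 51 and 58 in C18, from lists of very unequal length. The scaled HOMER bases, summed over the 8 loci, came to 14.5 and 12.8 kb in C2, 10.7 and 10.5 kb in C13, 14.2 and 13.4 kb in C10, and 18.9 and 20.9 kb in C18, lowest in C13 and highest in C18. In this sum the bases that Pf4 and Ppbp share count for both, while the peak counts hold each peak once.

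**Figure D1:**
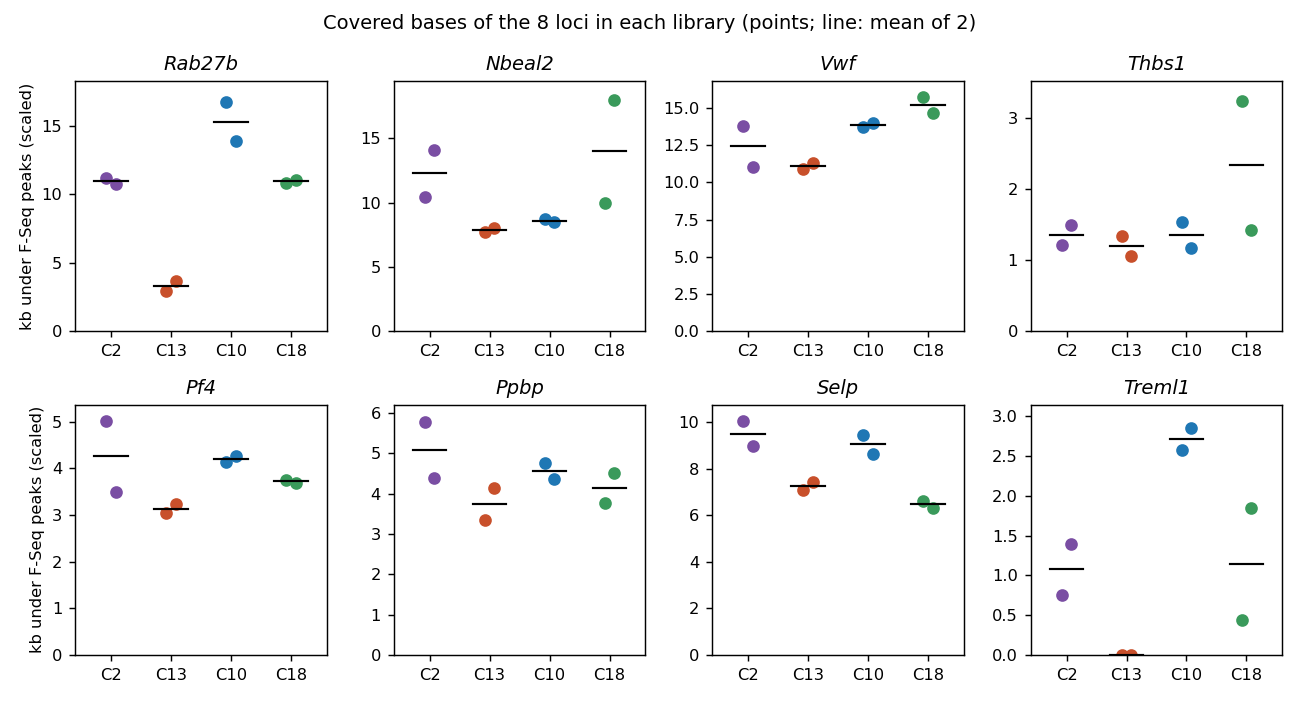
Scaled kb under F-Seq peaks at each of the 8 loci, 1 panel per gene, with 1 point per library and a bar at the mean of the 2 libraries of C2, C13, C10 and C18. The C13 libraries are lowest at Rab27b (2.96 and 3.66 kb) and at 0 at Treml1, while at Vwf, Pf4 and Selp the 4 populations lie closer together.

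Rab27b encodes a small GTPase that docks dense granules for secretion in mouse platelets, and its gene lies at chr18:69979131-70141633. The bases under F-Seq peaks came to 11.2 and 10.7 kb in C2, 2.96 and 3.66 kb in C13, 16.7 and 13.9 kb in C10, and 10.8 and 11.05 kb in C18. Both C13 libraries lay below all 6 others, the C10 libraries were the highest, and those of C2 and C18 overlapped. HOMER listed 24 and 20 peaks there in C2, 19 and 18 in C13, 36 and 33 in C10, and 13 and 15 in C18, from lists that were shortest in C18. Scaled like the F-Seq bases, the HOMER peaks covered 3.66 and 2.50 kb in C2, 1.93 kb in both C13 libraries, 3.98 and 3.31 kb in C10, and 4.30 and 4.61 kb in C18. By this measure C13 was again below all 6 others, and C18 was the highest. The difference of C13 from the mean of C10 and C18 was -1.91 in F-Seq bases and -0.99 in HOMER bases on the log2(bases + 200) scale, and -2.14 against C10 alone.

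Of the 25 regions at the Rab27b locus, 11 had an F-Seq peak in both C10 libraries and in neither C13 library, and 4 had one in all 6 libraries of C2, C10 and C18 but in none of C13. Over all regions these classes held 5.6% and 1.1%, and as Rab27b was known beforehand to be low in C13, nothing is read from these shares. The strongest of the 4 was a region of 1284 bases 75.9 kb from the low-coordinate end, at chr18:70054439-70055722. Its peak stood in the top 5.55% and 5.35% of the list by signal in C2, 1.28% and 1.65% in C10, and 7.61% and 8.21% in C18. HOMER listed a peak there in every library, at 87.0% and 89.6% of its list by score in C13. In C10 the HOMER peak stood at 0.841% and 0.775%, and in C2 and C18 at 3.93% to 14.9%. Over the 11 regions HOMER listed a peak in both C13 libraries at 3, where the C13 peaks all stood between 83.9% and 89.6%. The neighbouring region, 74.2 kb from that end, had an F-Seq peak in all 8 libraries, at 17.7% and 24.3% in C13 and between 3.42% and 12.3% in the others.

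Accessibility at Rab27b was not low everywhere in C13. The region at the high-coordinate end of the gene had a peak in every library, in the top 16.7% and 20.4% in C2, 9.41% and 7.04% in C13, 8.38% and 9.38% in C10, and 29.3% and 18.8% in C18. At 66.9 kb the C13 peaks stood at 20.3% and 20.6%, between those of C10 at 17.9% and 19.6% and those of C2 and C18, which reached 38.8% to 68.5%. The 4 regions with an F-Seq peak in all of C2, C10 and C18 and none in C13 lay inside the gene, at 42.4, 75.9, 83.3 and 122 kb, while the end region ranked beside that of C10.

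Nbeal2 encodes a BEACH-domain protein needed to form alpha granules, and its loss causes gray platelet syndrome in humans. The gene lies at chr9:110624789-110654161 on the minus strand, and Setd2, Nradd and Ccdc12 reach into the locus. The covered bases were 10.4 and 14.1 kb in C2, 7.75 and 8.05 kb in C13, 8.69 and 8.45 kb in C10, and 9.95 and 18 kb in C18. The C13 values were the lowest, by a narrow margin to C10, and the C18 libraries differed from each other more than C13 did from C10. The start region, 3889 bases long, was among the strongest peaks everywhere, in the top 2.04% and 1.33% in C2, 3.55% and 5.02% in C13, 3.28% and 3.53% in C10, and 0.974% and 1.14% in C18. It holds the Nbeal2 promoter shown above and also overlaps Ccdc12, so its signal cannot be assigned to Nbeal2 alone. No region of the locus had a peak in both C10 libraries and none in C13.

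Vwf encodes von Willebrand factor, the adhesion protein that megakaryocytes and endothelial cells store, and its gene spans chr6:125552948-125686679. The covered bases were 13.8 and 11.04 kb in C2, 10.9 and 11.3 kb in C13, 13.7 and 14.0 kb in C10, and 15.8 and 14.7 kb in C18. C13 lay below C10 and C18 and overlapped C2. The region 20.2 kb inside the gene was the strongest, in the top 2.70% and 3.72% in C2, 5.80% and 4.54% in C13, 2.12% in both C10 libraries, and 4.82% and 2.56% in C18. The low-coordinate end itself had an F-Seq peak in only 2 of the 8 libraries, C10 replicate 1 and C18 replicate 1. Of the 34 regions, 1, 31.1 kb inside, had an F-Seq peak in all libraries of C2, C10 and C18 and none in C13. HOMER listed a peak there in 1 C2 library and both C10 libraries only, and in none of C13 or C18.

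Thbs1, the gene of thrombospondin 1, an adhesion protein of alpha granules, held peaks in every library, mostly at 1 place. The covered bases were 1.21 and 1.49 kb in C2, 1.34 and 1.06 kb in C13, 1.54 and 1.17 kb in C10, and 3.24 and 1.42 kb in C18, and the groups overlapped. Only 1 of its 6 regions recurred between libraries. It lies at the low-coordinate end of the gene, at chr2:118110705-118112437, and stood in the top 19.9% and 16.3% in C2, 38.0% and 33.8% in C13, 23.5% in both C10 libraries, and 18.8% and 20.5% in C18. The higher C18 value came from 5 peaks in replicate 1, against 1 in replicate 2.

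Pf4 and Ppbp encode the chemokines CXCL4 and CXCL7, which are among the most abundant proteins of alpha granules. At Pf4 the covered bases were 5.01 and 3.50 kb in C2, 3.03 and 3.25 kb in C13, 4.14 and 4.26 kb in C10, and 3.76 and 3.69 kb in C18. At Ppbp they were 5.79 and 4.38 kb in C2, 3.35 and 4.14 kb in C13, 4.77 and 4.36 kb in C10, and 3.76 and 4.52 kb in C18. C13 was the lowest at Pf4, whereas at Ppbp it overlapped C18. A single region of 3568 bases spans the Pf4 gene with its promoter and had a peak in every library, at 11.2% and 18.1% in C2, 36.8% and 37.1% in C13, 9.39% and 12.1% in C10, and 18.5% and 9.40% in C18. The region 3.26 kb from the start of Pf4 ranked at 11.03% and 14.8% in C2, 98.4% in 1 C13 library with no peak in the other, 10.1% and 12.8% in C10, and 42.2% and 12.04% in C18. Both regions thus stood lower in the lists of C13 than in those of the other 6 libraries.

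The start region of Ppbp, which contains the TATAAA letters shown above, was weak in every population. Its F-Seq peaks stood at 87.1% and 57.2% in C2, 53.8% and 63.3% in C13 and, for C10, at 95.4% and 88.8%, while C18 had none. HOMER listed a peak there in 1 C2 library and in both C13 libraries only. Of these chemokine genes, then, the region over Pf4 was the strong one, and the start of Ppbp did not follow the order seen at Pf4.

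Selp encodes P-selectin, a receptor of the alpha granule membrane that binds leukocytes once it reaches the surface, and lies at chr1:164115264-164150026 on the plus strand next to F5. The covered bases were 10.05 and 8.97 kb in C2, 7.09 and 7.41 kb in C13, 9.46 and 8.64 kb in C10, and 6.60 and 6.32 kb in C18. C18, not C13, was the lowest, and C13 lay between it and C10. HOMER put C18 highest, with 3.17 and 2.42 scaled kb from 9 and 7 peaks, against 1.46 and 1.06 kb in C10 from 13 and 10 peaks. The locus holds the widest region of the 8, of 5071 bases and 22.2 kb from the start, in the top 1.09% and 0.955% in C2, 0.605% and 0.467% in C13, 0.577% and 0.481% in C10, and 2.00% and 2.56% in C18. Regions of the locus went in different directions in C13. That 5.34 kb before the start ranked at 97.1% and 92.1% in C13, against 15.7% to 34.9% in the other 6 libraries, whereas that 34.3 kb after it ranked at 20% and 16.9% in C13, against 55.8% to 94.6%. The only region of the 8 loci with a peak in both C13 libraries and none of the other 6 lay 43.1 kb after the Selp start, within the neighbouring gene F5. Its peaks were weak, at 97.1% and 84.3%, and HOMER listed none there in any library. Over all regions 4.7% were of this kind.

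Treml1 encodes TLT-1, a receptor of the alpha granule membrane found in megakaryocytes and platelets, and lies at chr17:48359916-48367176 on the plus strand. The covered bases were 0.748 and 1.40 kb in C2, 0 in both C13 libraries, 2.57 and 2.85 kb in C10, and 0.436 and 1.84 kb in C18. C10 was the highest in both libraries, and the C13 libraries were listed at 0, so no fold is given. HOMER also listed no peak in C13, where its lists were among the longest, and it listed none in 1 library each of C2 and C18, against 7 and 8 in C10. The start region at chr17:48359484-48361155, which holds the promoter shown above, ranked at 89.4% and 64.9% in C2 and at 35.7% and 36.4% in C10. It ranked at 51.9% in 1 C18 library and had no peak in the other. Over all loci, 191 of 18458, or 1.03%, had F-Seq peaks in both C10 libraries and none in C13. As Treml1 was known beforehand to be low in C13, nothing is read from this share.

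**Figure D2:**
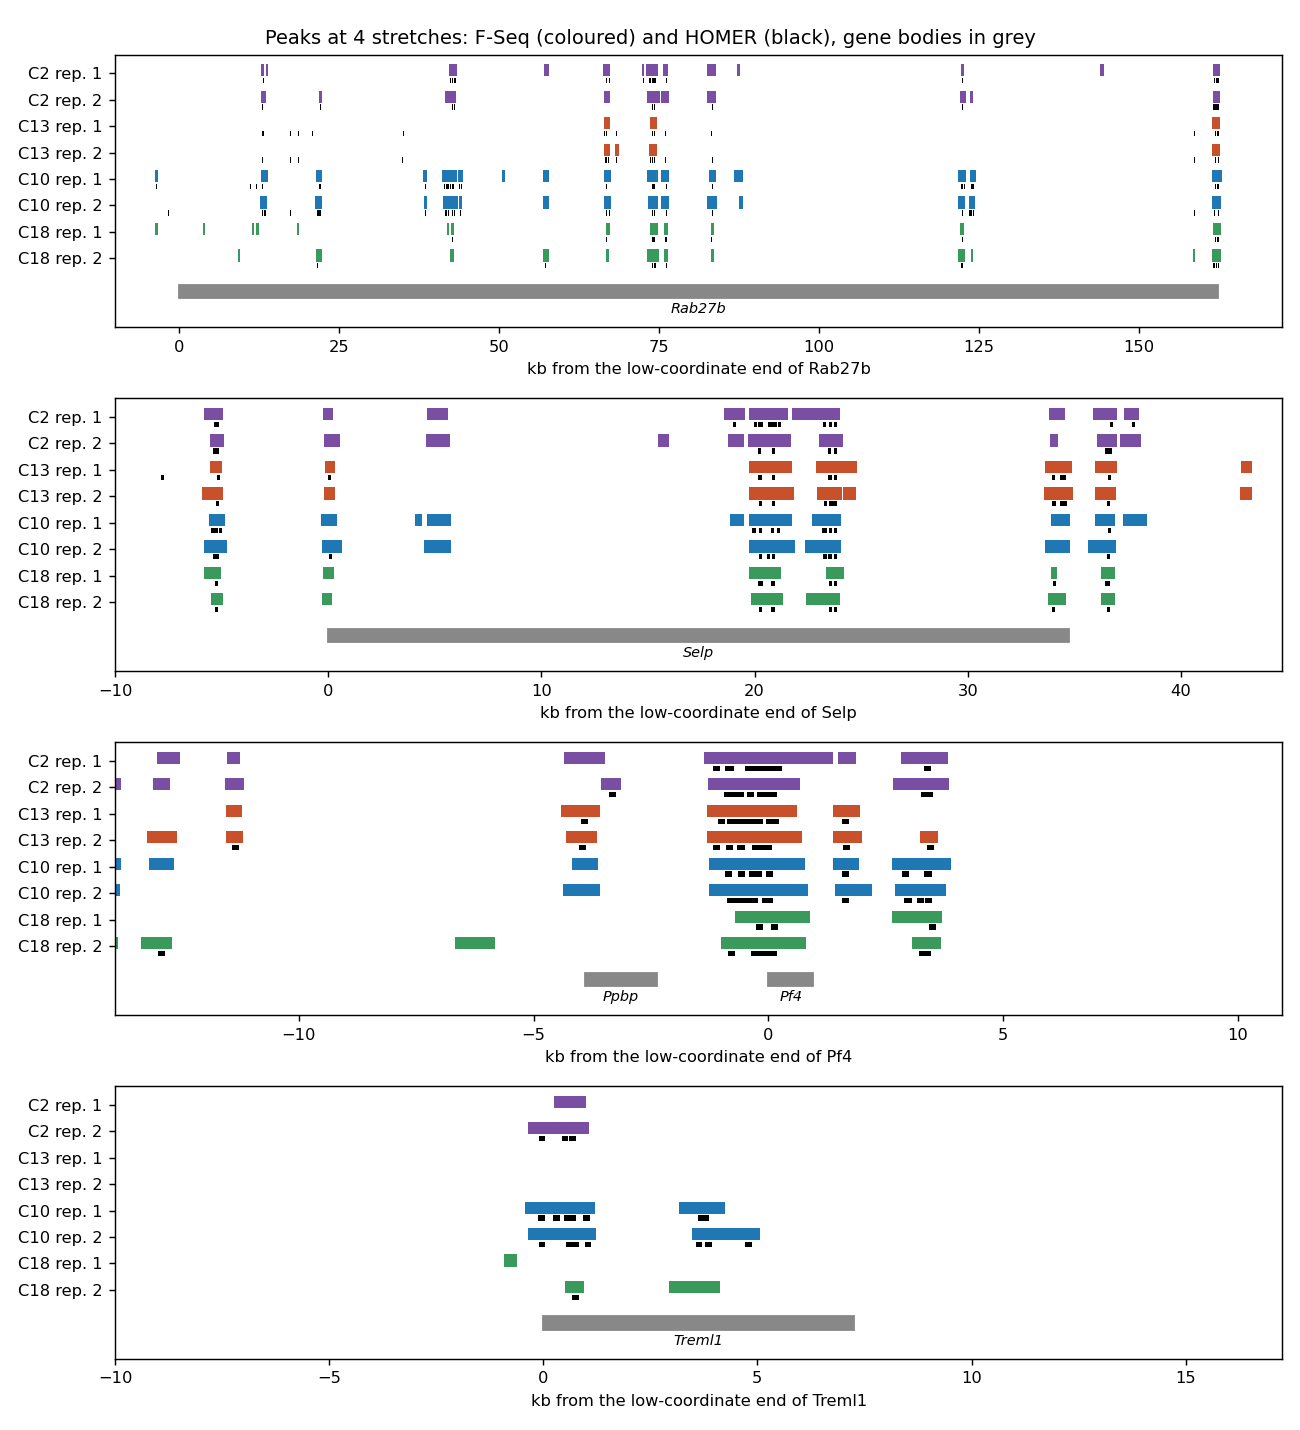
Positions of the peaks by library at 4 stretches (Rab27b, Selp, Ppbp with Pf4, and Treml1), in kb from the low-coordinate end of the gene (of Pf4 in the third), with F-Seq peaks coloured, HOMER peaks black and gene bodies grey. At Rab27b the C13 rows hold 3 and 4 F-Seq peaks, against 10 to 16 in the other 6 libraries, and at Treml1 the C13 rows are empty in both callers.

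Among the 20 regions with a peak in every library, the rank within the list, which does not use the peak width, can be set side by side. In 7 of them both C13 libraries ranked below all 4 of C10 and C18, against 24.0% of all such regions, and in 1 they ranked above them, against 15.9%. Since C13 chose some of these genes, these counts are a description only. C2 ranked below C10 and C18 in 2 (5.68% of all such regions) and above them in 0 (8.83%). C10 ranked above C18 in 6 (35.8%) and below it in 10 (27.6%).

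**Figure D3:**
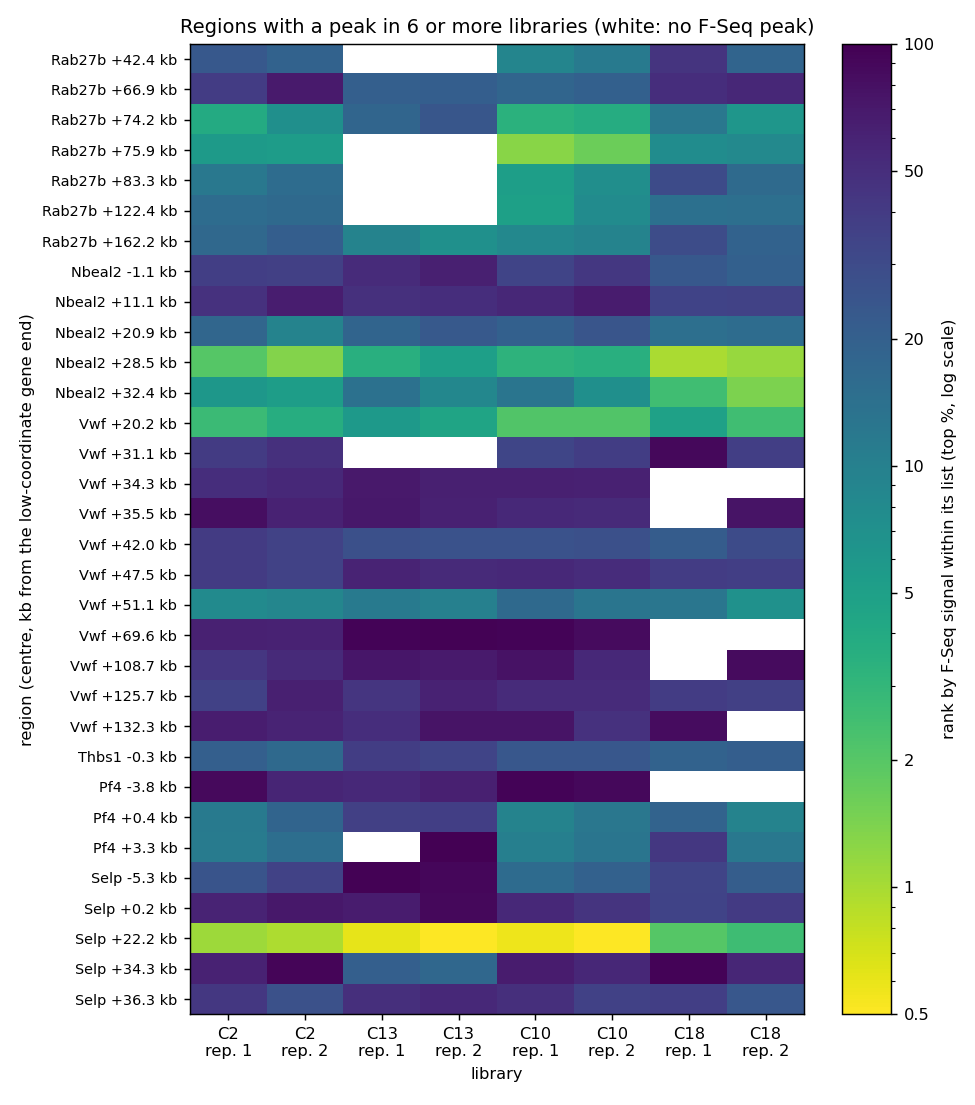
Rank of the F-Seq peak within its list, as the percentage of peaks at or above its signal (log colour scale, bright for the strongest), for the 32 regions with a peak in at least 6 libraries, in rows, and the 8 libraries, in columns. The regions of Selp at 22.2 kb and of the Nbeal2 start are near the top in all libraries, and white cells, where a library had no peak, are in the C13 columns at Rab27b, and also in the C13 and C18 columns at Vwf and at the Pf4 and Ppbp stretch.

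The first tested comparison was that of C2 with the mean of C10 and C18, which sets CD34bright against CD34dim cells within the CD41+ CD9+ gate. None of the 8 loci passed an adjusted p of 0.05 in limma, and none of all 18458 tested loci did, which is 0% in either direction. At an unadjusted p under 0.05 there were 1 of the 8 loci and 3068 of all loci, 16.6%. The 1 locus was Selp, with a log2 difference of 0.31 (SE 0.104, adjusted p = 0.225), and with HOMER its difference was -0.15. The differences of the 8 ranged from -0.56 at Treml1 to 0.31 at Selp, 4 below and 4 above 0, with a median of -0.07 against 0.06 over all loci. At none of the 8 did the C2 libraries lie apart from all 4 of C10 and C18, where 8.16% of all loci lay above and 5.32% below. With both C18 libraries left out of the fit, which changes the shared spread as well as the comparison, 1446 loci passed against C10. None of the 8 did, of which Treml1 was nearest with a difference of -1.24 and a limma adjusted p of 0.0618.

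The second was that of C10 with C18, which sets CD48bright against CD48dim cells. Selp rose in C10, with a log2 difference of 0.47 (SE 0.120, limma adjusted p = 0.0338), and none of the 8 fell. Over all loci 7.92% passed in this direction and 14.2% in the other. The direction at Selp held only in F-Seq bases: with HOMER it was -1.03 (adjusted p = 0.0291), with F-Seq peaks that HOMER also lists it was -0.73 (adjusted p = 0.0719), and the call was lost in 8 further alternatives, among them leaving out either C10 library, either C13 library or C18 replicate 2, and the adjusted p ran between 0.0078 and 0.210 over all its alternatives. Rab27b had a difference of 0.47 (SE 0.146, adjusted p = 0.0578) in F-Seq and -0.28 in HOMER. Treml1 had the largest difference, 1.35 (SE 0.553, adjusted p = 0.118), and its sign was the same with HOMER, at 1.56. Nbeal2 had -0.63 (SE 0.269, adjusted p = 0.130) with F-Seq. Its F-Seq difference was -0.18 without scaling, -0.21 without C18 replicate 2 and -1.05 without C18 replicate 1. With HOMER it had -1.22 (adjusted p = 0.00599). That value came from 15 and 16 peaks in C10 against 13 and 12 in C18, whose bases were raised by the factors of 2.62 and 2.31.

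The other 4 loci, Vwf, Thbs1, Pf4 and Ppbp, had F-Seq differences of -0.62 to 0.16 between C10 and C18 and adjusted p of 0.274 to 0.630, and HOMER differences of -0.69 to -0.08. The C10 libraries lay above both C18 libraries at Rab27b, Pf4, Selp and Treml1 (23.4% of all loci did) and below them at Nbeal2 and Vwf (39.8% of all loci did). The median of the 8 was 0.15, against -0.15 over all loci, and with HOMER -0.44, against -0.25 over the same loci, so that the callers put the 8 on opposite sides of the median locus. Without scaling the F-Seq median of all loci was 0.27, so a small difference here takes its sign from the scaling. Beside this, the housekeeping list had 5 of 18 loci lower in C10 and none higher with F-Seq, and 15 lower with HOMER. The part of the short C18 lists in these differences was not tested.

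**Figure D4:**
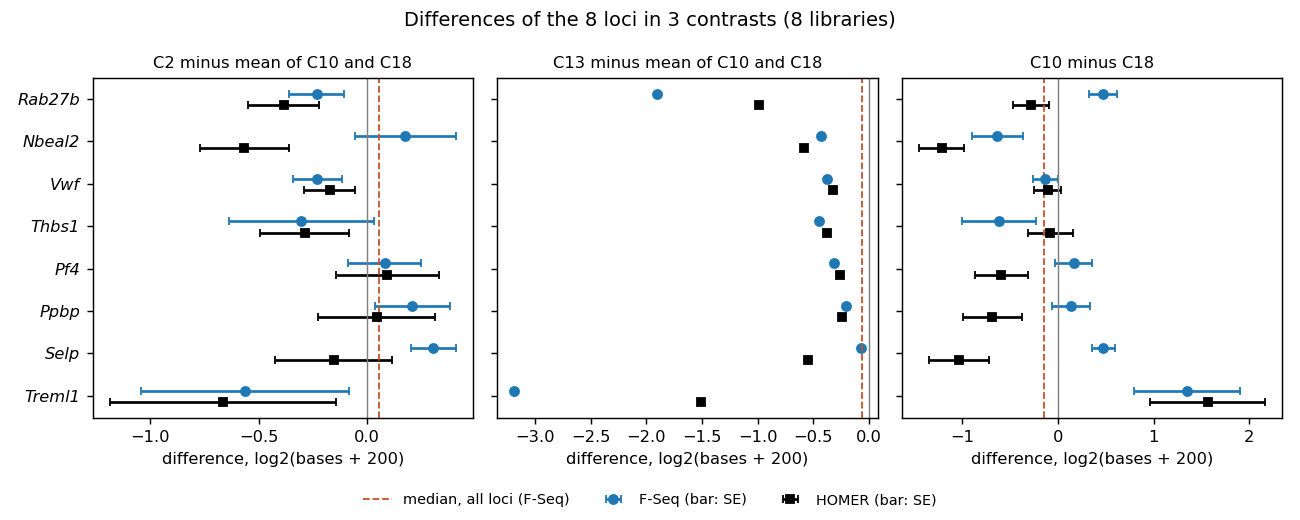
Differences of the 8 loci on the log2(bases + 200) scale in the 3 contrasts, with F-Seq as circles and HOMER as squares, bars of 1 SE where a test was made, and a dashed line at the F-Seq median of all loci. In C10 minus C18 the callers lie on opposite sides of 0 at Rab27b, Pf4, Ppbp and Selp, and in the C13 contrast all 8 F-Seq values lie below 0 (without scaling those of Ppbp and Selp lie above it), with that of Treml1 set by the 200 bases added to a value of 0.

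In the C13 contrast, given as a description, the differences from the mean of C10 and C18 were -1.91 at Rab27b, -0.43 at Nbeal2, -0.38 at Vwf, -0.45 at Thbs1, -0.32 at Pf4, -0.21 at Ppbp and -0.07 at Selp. All 8 were below 0 in both callers as scaled. Of all 18458 loci, 10317 were below 0 with F-Seq, and the HOMER median over the same loci was -0.14. Pf4 and Ppbp share 4 regions, and Rab27b and Treml1 were known beforehand to be low in C13. The sign turned at Selp (0.18) and Ppbp (0.04) without scaling, at Selp (0.41) with the 20000 strongest peaks, at Ppbp (0.61) without extension, and at Pf4 (0.10), Ppbp (0.17) and Selp (0.07) by number of peaks. At 5 of the loci the C13 libraries lay below all 4 of C10 and C18 (14.4% of all loci did). The median was -0.41, against -0.06 over all loci, and it does not depend on the value set for Treml1. Against C10 alone it was -0.31. Summed markers of other cell types were set beside this. The 14 erythroid loci came to 36.3 and 37.8 kb in C13, 48.6 and 49.7 kb in C10, and 64.7 and 85.5 kb in C18, and the 12 lymphoid loci to 80.1 and 83.2 kb in C13, 57.3 and 60.3 kb in C10, and 41.5 and 40.8 kb in C18. The 12 granulocyte and monocyte loci came to 66.5 and 72.3 kb in C13, 51 and 57.1 kb in C10, and 100.3 and 56.3 kb in C18, and the 12 endothelial loci to 59.4 and 62.9 kb in C13, 59.6 and 64.3 kb in C10, and 55.5 and 61.7 kb in C18. C13 was lowest in the erythroid sum and highest in the lymphoid sum of these 6 libraries, and overlapped C10 or C18 in the other two. The 10 platelet glycoprotein loci came to 45.4 and 46.5 kb in C13, 54.3 and 51.7 kb in C10, and 47.3 and 66.7 kb in C18. Their part in the values of the 8 loci was not tested.

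Lists of other granule genes were counted in the same fit. None of their loci passed in C2 against C10 and C18. The alpha granule list holds F5 and Cxcl5, which reach into the loci of Selp and Ppbp, so it is not fully separate from the 8 loci. Between C10 and C18 the alpha granule list had 3 of 25 tested loci higher in C10 and 1 lower, with a median of 0.19, beside 7.92% higher and 14.2% lower over all loci. With HOMER the list had 9 higher and 3 lower, with a median of 0.17, beside 3163 higher and 5687 lower over all loci. Egf, the gene of epidermal growth factor, had a difference of 1.5 (limma adjusted p = 0.00615), and Igf1, of insulin-like growth factor 1, had 1.30 (adjusted p = 0.0308). Their HOMER differences were 0.85 and 2.80. Pdgfa, a platelet growth factor chain, had -0.99 (adjusted p = 0.0357), with a HOMER difference of 0.21. Cd40lg, of the CD40 ligand, also passed, and as its C18 libraries were listed at 0 no fold is given.

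The dense granule list had 1 of 21 loci higher in C10, Rab38, a GTPase of lysosome-related organelles, with 1.02 (adjusted p = 0.0106). Its HOMER difference was -0.97, the opposite sign. It had 1 lower, Ap3d1, a subunit of the AP-3 adaptor that sorts cargo to these granules, with -0.47 (adjusted p = 0.0414) and -1.36 with HOMER. By HOMER this list had 2 higher and 9 lower, beside 3163 higher and 5687 lower over all loci. The list of the secretion machinery had 1 of 24 higher and 2 lower, with a median of -0.35, and with HOMER 3 higher and 10 lower, with a median of -0.60. Vamp2, a vesicle SNARE, had -0.95 (adjusted p = 0.00947), Unc13d, which tethers granules for fusion and binds RAB27, had -0.93 (adjusted p = 0.0243), and Sytl4, a RAB27 effector, had 0.89 (adjusted p = 0.0177). For these 3 genes the sign was the same with HOMER.

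For each of the 8 loci the tested loci with the most similar pattern were sought, by Pearson's r of log2(bases + 200) over the 8 libraries. These share their libraries and their scaling, and r is a description. Rab27b was closest to Vmn1r4 (r = 0.988) and Colec11 (0.981), Nbeal2 to Stx2 (0.986) and Nfya (0.982), Vwf to Zfp868 (0.990) and Atr (0.982), and Thbs1 to 2610044O15Rik8 (0.982) and Stard4 (0.979). Pf4 was closest to Rsu1 (0.979) and 2610008E11Rik (0.967), Ppbp to Fads2 (0.967) and Plag1 (0.934), Selp to Rab38 (0.978) and Arhgef18 (0.977), and Treml1 to Fam110b (0.981) and 2410004B18Rik (0.967). Of these, Colec11 averaged 3.42 kb over the C2 libraries, 0.658 kb over those of C13, 4.84 kb over those of C10 and 3.59 kb over those of C18, lowest in C13 and highest in C10 like Rab27b.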

How the data were processed

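Primary progenitors of 4 sorted populations were profiled by ATAC-seq in 2 libraries each. The submitters' processing notes name Bowtie 1.0.0, HOMER 1.0 and the build mm10; no version of F-Seq is named there. The authors deposited F-Seq lists with a peak signal, called per library, and HOMER lists with unlabelled score columns. Signal and score served only for ranks inside 1 deposited list. The members and lists were chosen with earlier results of these data known.

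Regions were the merged F-Seq lists, with a call at 1 base of overlap. Scaled bases per locus (log2(bases + 200)) were tested with limma 3.58.1 in R 4.3.3, with 4 group means and a trended eBayes, adjusted by Benjamini-Hochberg (threshold 0.05) over the 18458 loci covered in at least 2 libraries. The limma step was also run on simulated libraries of equal spread with changes in C2 alone, which does not bear on the calls between C10 and C18. Named genes were the 8 members, list loci past the threshold (at most 6 per list and contrast, by p) and the 2 loci most similar to each member. Alternatives covered the caller, the 20000 strongest peaks, scaling, peak number, locus extension, pseudocount, coverage filter, peaks of both callers, the variance model, the replicate number and each library left out. Leaving out both C18 libraries was chosen after seeing the data. Tables and plots were made with pandas 2.3.3 and matplotlib 3.10.9 in Python 3.11.15.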

Additional observations from a re-analysis of the deposited data

How the results depend on the processing

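The number of the 8 loci called was 0 in C2 against C10 and C18 in every alternative, and in C10 against C18 it was 1, moving to 2 with HOMER, without scaling and without extension, 3 with peaks of both callers, 0 with the number of peaks and 0 without trend, and 0 to 2 with 1 library left out. The calls in C10 against C18 changed in locus and direction. Both with HOMER (Nbeal2 and Selp) and all 3 with peaks of both callers (Nbeal2, Thbs1 and Ppbp) were lower in C10. Those without scaling (Rab27b and Selp) and without extension (Ppbp and Selp) were higher in C10. Over all loci HOMER called 5687 lower and 3163 higher in C10. In both directions together, 8072 of all loci were called with peaks of both callers, 3986 without scaling and 2223 without extension. With the 20000 strongest peaks the 1 call was Vwf, at -0.44, and not Selp. The median in C13 was -0.76 with the 20000 strongest peaks and -0.14 without scaling. Over all loci, the count in C2 against C10 and C18 (0) became 1386 with the 20000 strongest peaks, 397 with the number of peaks, 10 without extension, 15 at a pseudocount of 50, 167 without the filter, 373 with peaks of both callers, 130 without trend, 0 to 606 with 1 library left out and 1446 without C18. That in C13 (1265) became 4364 with HOMER, 3022 with the 20000 strongest peaks, 3631 with peaks of both callers, and 1 (without C13 replicate 2) to 3495 (without C18 replicate 1) with 1 library left out. That in C10 against C18 (4087) became 8930 with HOMER, 1164 with the number of peaks, 2223 without extension, 8072 with peaks of both callers, and 0 (without C10 replicate 1) to 5760 (without C18 replicate 1) with 1 library left out. Selp in C10 against C18 was -1.03 with HOMER and -0.73 with peaks of both callers. Regions with peaks in both libraries (C2 40, C13 32, C10 47, C18 32) became 13, 7, 15 and 10 with the 20000 strongest peaks, 59 in C13 with HOMER, 11 in C18 at 50% overlap, and 52 to 55 in C18 with 1 library left out. The causes were not tested.

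Same-numbered libraries did not pair: the correlation of their deviations ran between -0.01 and 0.12. With the replicate block the counts of all loci called were 0 in C2, 1018 in C13 and 3705 in C10 against C18, and Selp kept its call at an adjusted p of 0.0452. What depth limits could not be quantified, since the lists hold no read counts, and 2 libraries a population leave the spread to be shared over all 4.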

Other observations

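Outside the granule genes, the erythroid list had 5 of 14 loci lower in C10 than in C18 and none higher, with a median of -0.71, and with HOMER 8 lower and 1 higher. Over all loci 14.2% were lower and 7.92% higher with F-Seq, and 5687 loci were lower and 3163 higher with HOMER. The housekeeping list moved the same way, with 5 of 18 loci lower, none higher and a median of -0.55. With HOMER it had 15 lower and a median of -1.09, beside an erythroid HOMER median of -1.04. The part of the short C18 lists in these counts was not tested. Slc4a1, the anion exchanger of red cells, had a log2 difference of -3.17 and an adjusted p of 0.00702, and the globin genes Hba-a1 and Hbb-bs had -0.96 and -1.19. All 3 had the same sign with HOMER. The granulocyte and monocyte list had 3 of 12 loci lower in C10 (Fcnb, Mpo and Cebpe) and 1 higher (Ly86), and with HOMER 5 lower and 2 higher. The lymphoid list had 3 of 12 higher (Rag2, Cd2 and Dntt) and none lower, and with HOMER 4 higher and 1 lower. The endothelial list had 3 of 12 higher (Cdh5, Sox17 and Esam) and 1 lower (Pecam1), and of these Esam and Pecam1 had the opposite sign with HOMER, which called 5 higher and 1 lower. Of the sorted markers, Cd34 had 1.09 with F-Seq and -1.09 with HOMER, and of the platelet glycoproteins Gp1ba had -1.20 with F-Seq and -1.57 with HOMER.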
